A study of Mus musculus with 4 samples.

Results

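The small-subunit ribosomal protein genes were examined in an H3K27ac ChIP-seq experiment on Sv129 mouse embryonic stem cells (mESCs). H3K27ac is an acetylation of histone H3 that marks active promoters and enhancers. Cells of 1 line were split between medium without added folate (0 mg/L, FA0) and medium with normal folate (4 mg/L, FA4), both containing fetal bovine serum and leukemia inhibitory factor. Each condition gave 1 immunoprecipitated (IP) library and 1 input library, 4 in all, without replicates. The deposited table lists 4088 peaks of one IP over the other, read here as FA4 over FA0, so that FA0 is taken as the lower library at every one of them. This order was inferred from how the study names its promoter peaks, because no column states it. Wording elsewhere in the study points to the opposite order. The paper also reports slightly more H3K27ac in folate-deficient mESCs than in controls, the opposite direction to that read here. The order is thus not settled, and every difference given here would turn round if it were the reverse. Such a list can hold no region that was higher in FA0. Members were the protein-coding rows whose symbol was Rpsa or Rps followed by a digit, leaving out the ribosomal S6 kinase genes (Rps6k). The rule found 17 peaks at 16 genes, among 2044 symbols of protein-coding genes in the table. With 1 library per condition, differences in IP efficiency between the libraries cannot be told apart from differences in H3K27ac, no test between conditions was possible, and all values below are descriptions.

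The small ribosomal subunit is built from a ribosomal RNA and a set of proteins, most of them encoded by Rps genes. It binds mRNA, scans for the start codon and reads the codons, and its head and its body with the platform move relative to each other during translation. Rapidly dividing cells such as mESCs make large amounts of ribosomal protein, and the genes are expressed in almost every cell type. Many ribosomal protein mRNAs begin with a C and a run of pyrimidines, the terminal oligopyrimidine element, through which mTOR signalling controls their translation.

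Stretches around the RefSeq start sites are shown for the 5 genes whose peaks had the highest −log10 q values in the family and that had a start in the reference table, so that the peak positions can be read against them. Rps10 and Rps12 were the first members with no row by symbol order. Each run covers 100 bases before the start and 30 bases from it, 5′ to 3′ on the gene's strand, from RefSeq on GRCm38.p6, the assembly of mm10. Capitals mark matches, on either strand, to any of 5 motifs, namely TATAAA for the TATA-binding protein, GGGCGG for Sp1, CCGGAA for ETS family factors, AAGATGGC for YY1, and CTTTCC as part of a pyrimidine tract. CCGGAA and CTTTCC can share bases, and a match does not show that a factor was bound.
Rps18, chr17:33955636-33955765, minus strand: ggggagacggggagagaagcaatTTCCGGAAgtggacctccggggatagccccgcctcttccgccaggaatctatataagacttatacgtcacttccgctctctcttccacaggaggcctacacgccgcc
Rps26, chr10:128626477-128626606, minus strand: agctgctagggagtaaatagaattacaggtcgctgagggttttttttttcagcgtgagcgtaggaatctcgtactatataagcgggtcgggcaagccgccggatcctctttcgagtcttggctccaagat
Rps4x, chrX:102189362-102189491, minus strand: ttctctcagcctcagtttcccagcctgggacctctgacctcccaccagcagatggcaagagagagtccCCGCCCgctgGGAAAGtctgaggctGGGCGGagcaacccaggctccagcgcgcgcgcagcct
Rps3, chr7:99483680-99483809, minus strand: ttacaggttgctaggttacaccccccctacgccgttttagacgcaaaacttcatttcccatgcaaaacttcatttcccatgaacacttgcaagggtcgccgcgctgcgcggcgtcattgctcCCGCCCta
Rps13, chr7:116334161-116334290, minus strand: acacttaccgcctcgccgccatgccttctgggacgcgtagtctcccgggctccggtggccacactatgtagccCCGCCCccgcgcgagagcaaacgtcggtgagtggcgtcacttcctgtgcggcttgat
Rps10, chr17:27635215-27635344, minus strand: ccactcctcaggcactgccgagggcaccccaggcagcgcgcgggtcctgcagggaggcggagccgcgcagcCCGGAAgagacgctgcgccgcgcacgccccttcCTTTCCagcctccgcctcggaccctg
Rps12, chr10:23787180-23787309, minus strand: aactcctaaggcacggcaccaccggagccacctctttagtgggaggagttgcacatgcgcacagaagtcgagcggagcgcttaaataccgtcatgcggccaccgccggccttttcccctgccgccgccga

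In the Rps18 stretch the CCGGAA core was read on both strands, from positions −77 and −75 relative to the start. Rps4x carried GGGCGG on the gene's strand from −7 and on the other strand from −32, with CTTTCC on the other strand from −22. Rps10 carried CCGGAA from −29 and CTTTCC from 4 bases after its start. GGGCGG on the other strand began at −27 in Rps13 and 22 bases after the start in Rps3. No motif was matched in the stretches of Rps26 and Rps12. Only exact matches were counted, so near matches such as tataag in the stretches of Rps18 and Rps26 were left out. Over the whole reference window (250 bases before the start and 50 from it, the most upstream start of each gene), CCGGAA was found in 7 of the 13 members with a peak and a start in the table. It was found in 6 of the 11 members without a row, and in 19.1% of all 17492 coding genes with such a window. GGGCGG was found in 6 of 13 and 7 of 11, with 46.3% over all coding genes, and CTTTCC in 4 of 13 and 4 of 11, with 25.8% over all. TATAAA was found in 0 of 13 and 2 of 11 (13.3% over all), and AAGATGGC in 1 of 13 and 1 of 11 (3.21% over all). Among the 34 large-subunit genes with such a window, CCGGAA was found in 17, GGGCGG in 22 and CTTTCC in 18. TATAAA was found there in 4 and AAGATGGC in 3. For all coding genes with a promoter peak the shares of these 5 motifs were 29%, 62.7%, 27.2%, 8.37% and 6.84%, in the same order. Among the members without a row, Rps2, Rps21 and Rps28 did have a peak within 1 kb of the start, listed under another gene. The TATAAA matches without a row were those of Rps2 and Rps28. A C at the RefSeq start followed by pyrimidines, in a run of at least 5, was found in 2 of 13 members with a peak, Rps18 with a run of 9 and Rps27 with a run of 7. It was found in 4 of 11 without a row (Rps6, Rps10, Rps15a and Rps21) and in 2.17% of all coding windows. The large subunit had it in 6 of 34 windows, and all coding genes with a promoter peak in 3.66%. This last feature was chosen after the sequences were seen. It was read from the RefSeq start base alone, so a tract beginning after it, as in the stretches of Rps26 and Rps12, was not counted. The window of members with a peak had a median GC content of 54%, that of members without a row 60.7%, that of the large subunit 58.7%, that of all coding genes with a promoter peak 60.7% and that of all coding genes 56.3%. Rps27a among the members with a peak, and Rps14, Rps20 and Rps29 among those without, were some of those with no entry in the sequence table.

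In the inferred order, H3K27ac was higher in FA4 at the promoters of 16 of the 32 small-subunit genes listed (50%, exact binomial 95% interval 31.9 to 68.1). Over all 21900 protein-coding genes of RefSeq, 4.73% had such a promoter peak. Of the 47 large-subunit genes, 31 had one (66%, interval 50.7 to 79.1), and the intervals of the 2 subunits overlapped. The deposited annotation placed all 17 small-subunit peaks in its class nearest to a start, within 1 kb. A peak with a fold enrichment of at least 3 was found at 4 of 32 small-subunit genes and 13 of 47 large-subunit genes, with 2.59% over all protein-coding genes. With −log10 q of at least 3 these counts were 12 of 32 and 28 of 47, with 2.95% over all. These intervals describe counting error over genes, which are no replicates of a condition. The H3K27ac level of genes outside the list was not analysed here, so the part of signal height in these shares was not tested.

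**Figure D1:**
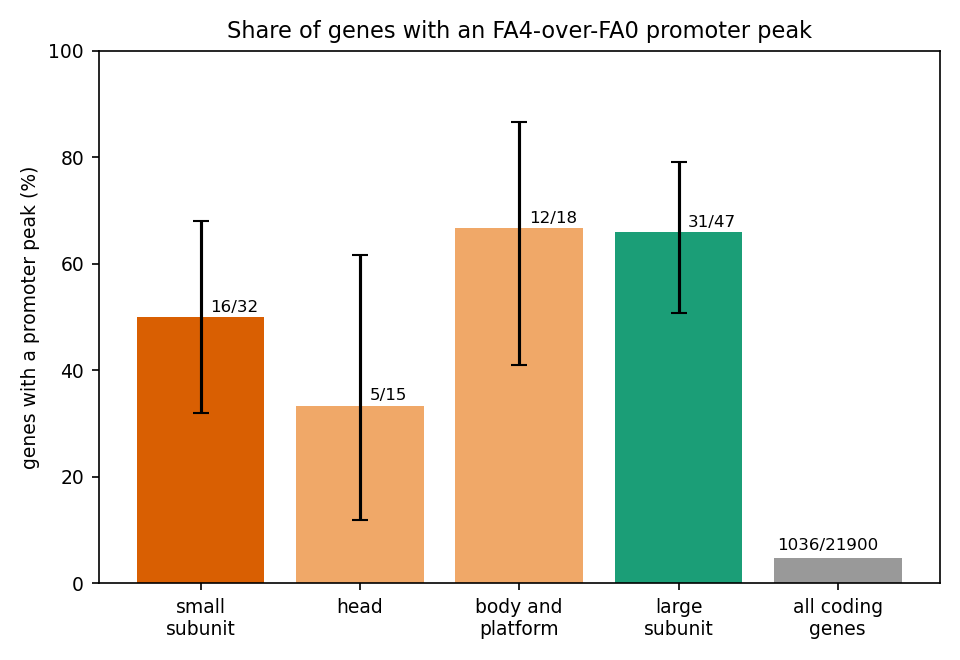
Percent of genes with a promoter peak in which FA4 exceeded FA0, for the small subunit, its head and its body with the platform (these include Rack1 and Fau), the large subunit and all protein-coding genes. Bars are shares with exact binomial 95% intervals and the counts are printed above them. The small subunit stood at 16 of 32 and the large subunit at 31 of 47, against 1036 of 21900 coding genes.

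Each peak is described by a background and a pileup. The background is the peak caller's estimate from FA0 of the fragments to be found around the summit, which has a floor shared by 1490 of the 4088 peaks and by 0 of the 17 members, and it was worked back from the pileup and the fold, each library having 1 fragment added in the fold. The pileup is the number of FA4 fragments stacked at the summit. Fold enrichment therefore runs as FA4 over FA0. The FA0 background of the 17 peaks had a median of 27 fragments, between 13.4 and 43, and the FA4 pileup a median of 72, between 42 and 135. The lower end of the Poisson 95% interval of the FA4 pileup lay above the FA0 background at all 17 peaks, which holds for counting error only and is what calling a peak requires. The fold had a median of 2.30 and ran from 1.77 to 4.87. Among the 34 large-subunit promoter peaks the median background was 25.9 in FA0, the median pileup 76 in FA4 and the median fold 2.88. Among 804 promoter peaks within 1 kb of a start of other coding genes they were 16.9, 44 and 2.80. The small-subunit peaks thus had a higher FA0 background and a higher FA4 pileup than the median promoter peak of the list, and a lower fold.

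**Figure D2:**
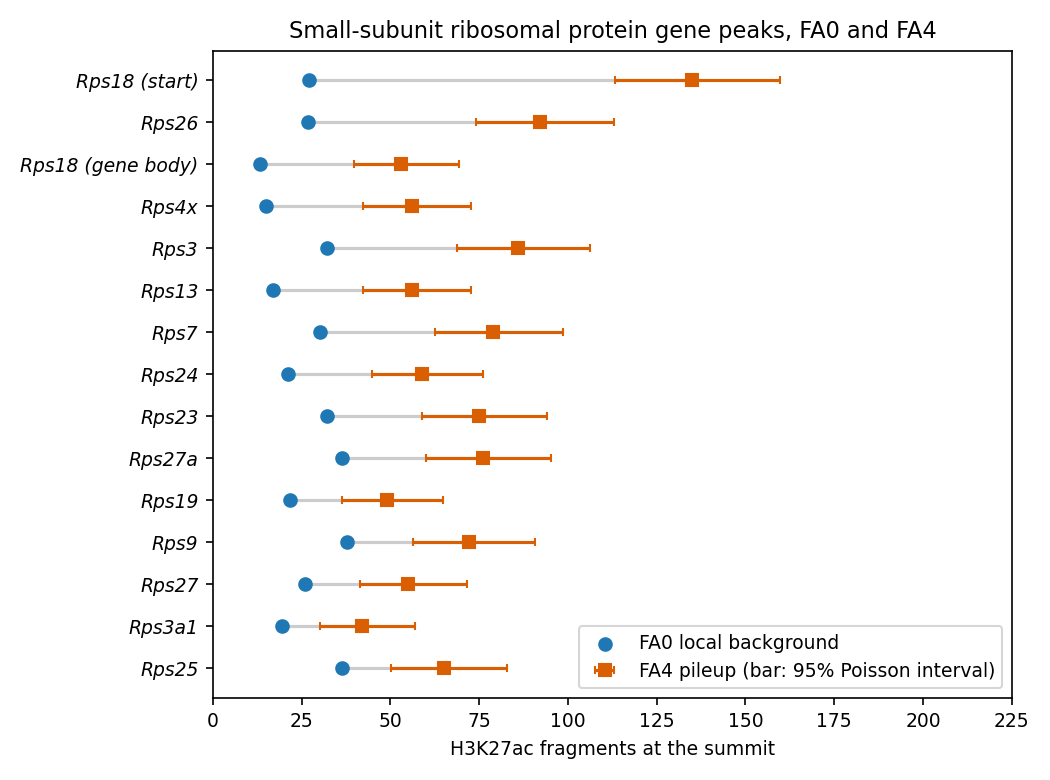
H3K27ac fragments at 15 small-subunit peaks, ordered by −log10 q from the top. Squares are the FA4 pileup at the summit, with bars for its Poisson 95% interval. Circles are the FA0 local background, an estimate by the caller and not a count at the summit, so the axis label applies to the squares only. The squares run from 42 at Rps3a1 to 135 at Rps18, and each interval lies to the right of the FA0 circle of its row.

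The tallest and most significant peak of the family lay at Rps18, which encodes a protein of the head that contacts the large subunit. At chr17:33954885-33955654 (mm10) the background was 27 fragments in FA0 and the pileup was 135 in FA4 (Poisson 95% interval 113 to 160). The fold of 4.87 was the highest of the family, and its −log10 q of 42.9 ranked 4 among the 1538 promoter peaks. The next highest pileup, at Rps26, was 92, so Rps18 stood apart from the other members. A further peak at chr17:33953715-33954064, inside the gene, had a background of 13.4 in FA0 and a pileup of 53 in FA4, a fold of 3.76 and −log10 q of 11.2. Rps18 was the only member with 2 peaks. The RefSeq bounds of Vps52, a neighbouring coding gene, began 125 bp from the first peak.

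Of the other genes of the head, 4 had a peak. Rps3, whose protein lines the mRNA entry channel, had a background of 32.2 in FA0 and a pileup of 86 in FA4 at chr7:99483268-99483641, with a fold of 2.62. Rps27a, which encodes a ribosomal protein fused to ubiquitin, had 36.3 in FA0 and 76 in FA4 at chr11:29547516-29548076, with a fold of 2.07. That peak also overlapped the RefSeq bounds of Clhc1. Rps19, the gene most often mutated in Diamond-Blackfan anaemia in humans, had 21.6 in FA0 and 49 in FA4 at chr7:24885407-24885728, with a fold of 2.21. Rps25, which some viral internal ribosome entry sites require, had 36.3 in FA0 and 65 in FA4 at chr9:44407733-44408056. Its fold of 1.77 and −log10 q of 1.89 were the lowest in the family, where the lowest −log10 q of the whole table was 1.31. Head genes without a row included Rps10, Rps12, Rps15, Rps16, Rps20, Rps28 and Rps29, and Rack1, a scaffold protein of the head whose symbol the rule does not match. With Rack1 counted, 5 of 15 head genes had a promoter peak (33.3%, interval 11.8 to 61.6).

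Of the genes of the body and platform, 12 of 18 had a promoter peak (66.7%, interval 41 to 86.7), Fau included and Rps27l assigned to neither region. The intervals of head and body overlapped, and the difference between them was not tested. Rps26, whose protein contacts mRNA upstream of the start codon, had the next highest peak after Rps18. At chr10:128626123-128626730 its background was 26.8 in FA0 and its pileup 92 in FA4 (interval 74.2 to 113), with a fold of 3.34 and −log10 q of 17.1. Rps4x, an X-linked member, had 15 in FA0 and 56 in FA4 at chrX:102188999-102189318, and Rps13 had 16.9 in FA0 and 56 in FA4 at chr7:116333671-116333975. Their folds were 3.55 and 3.18 on lower backgrounds than most of the family. Rps18, Rps26, Rps4x and Rps13 were the 4 genes with a fold of at least 3.

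Rps7, a protein of the body that also binds the p53 regulator MDM2, had 30.1 in FA0 and 79 in FA4 at chr12:28635294-28635836, with a fold of 2.57. Rps24, mutated in some patients with Diamond-Blackfan anaemia, had 21.2 in FA0 and 59 in FA4 at chr14:24490973-24491267, with a fold of 2.70. Rps23, a protein of the decoding centre, had 32 in FA0 and 75 in FA4 at chr13:90922975-90923683, with a fold of 2.30. These 3 genes had −log10 q values from 6.05 to 8.63 and stood in the middle of the family.

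Folds near 2 were found at further genes of the body. Rps9, which lines the mRNA entry channel, had 37.7 in FA0 and 72 in FA4 at chr7:3704121-3704749, with a fold of 1.89. Rps27, a zinc-finger protein, had 26 in FA0 and 55 in FA4 at chr3:90213262-90213644, with a fold of 2.07. Rps3a1, a platform protein near the mRNA exit, had 19.6 in FA0 and 42 in FA4, the lowest pileup among the members, at chr3:86141707-86142037, with a fold of 2.09. Their −log10 q values were 2.91 and 2.10. Fau, whose product is a fusion of a ubiquitin-like protein and a small-subunit protein and whose symbol the rule does not match, had 38 in FA0 and 80 in FA4 at chr19:6057961-6058488, with a fold of 2.08. No row was listed for Rpsa, Rps2, Rps6, Rps14, Rps15a or Rps21.

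Across the 17 peaks the FA0 background and the fold ran in opposite directions (Spearman's rho −0.71), and the FA0 background and the FA4 pileup ran together (0.65). These are descriptions over peaks of the same 2 libraries, and the background is the denominator of the fold. The plot of pileup against background showed the small-subunit peaks among the upper part of all promoter peaks, with none at a background under 13.4 fragments.

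**Figure D3:**
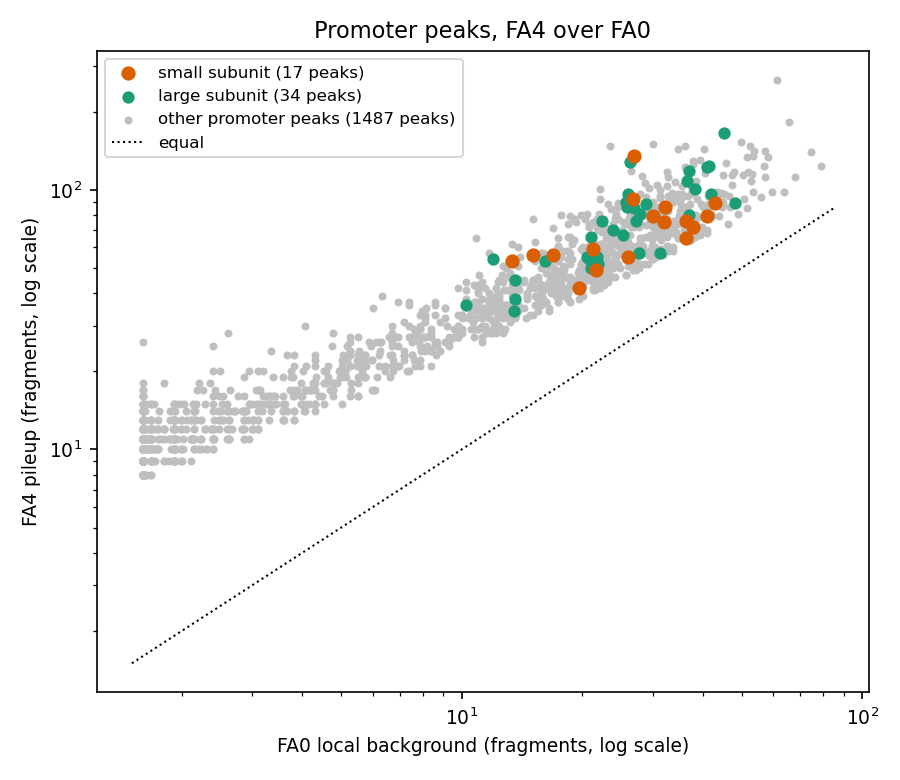
FA4 pileup against FA0 local background for the 1538 promoter peaks, both on log scales, with the 17 small-subunit and 34 large-subunit peaks coloured and a dotted line where the values are equal. All points lie above the line because the list holds only regions called higher in FA4, and the small-subunit peaks sit between backgrounds of 13.4 and 43.

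Genes for which bacteria have a homologue had a promoter peak in 6 of 15 cases (40%, interval 16.3 to 67.7) and the other genes of the subunit in 11 of 18 (61.1%, interval 35.7 to 82.7). Of the 9 genes mutated in Diamond-Blackfan anaemia that were listed, 5 had one, namely Rps7, Rps19, Rps24, Rps26 and Rps27. Of the 10 genes with a small nucleolar RNA inside their RefSeq bounds 5 had a promoter peak, and of the 22 without one 11 did. Chromosome 7 carries 9 of the genes and 5 of them had a promoter peak, against 11 of 23 on the other chromosomes. Over all coding genes the share with a promoter peak was 5.27% on chromosome 7 (107 of 2030) and 4.73% genome-wide, which is the background for each of these counts. No member with a peak lay on chromosome 8 or chromosome 1. The intervals of these shares were wide, and none of these differences was tested.

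Most summits lay downstream of the start sites. By the start the authors assigned to each peak, 13 of 17 summits were downstream (76.5%, interval 50.1 to 93.2). By the same measure it was 23 of 34 large-subunit summits (67.6%) and 517 of 804 of other coding genes (64.3%), both inside that interval. With the RefSeq start nearest to the summit, 17 of 17 small-subunit summits were downstream. They lay from 174 bp at Rps27 to 1853 bp at the inner peak of Rps18, with a median of 311 bp. Of the 4 that turned, 3 were the first peak of Rps18 (−249 bp by the deposited start and 204 bp by RefSeq), Rps27 (−173 bp and 174 bp) and Rps25 (−25 bp and 272 bp). The position of a summit relative to the gene thus depended on which transcript was taken. Over 801 peaks of other coding genes within 1 kb of a start, 75.2% of summits were downstream by RefSeq, and over the 34 large-subunit peaks 82.4%. Between 150 and 550 bp downstream, bounds chosen after the values were seen, lay 14 of 17 small-subunit summits, 22 of 34 large-subunit summits and 31.1% of those of the other coding genes. The peaks of the other coding genes were within 1 kb by the deposited start only. By RefSeq their summits ran from −55769 bp to 1.67e+06 bp, with an upper quartile of 1051 bp. Their RefSeq shares are therefore not like for like with those of the subunits. By RefSeq, 3 peaks, at Rps26, Rps23 and Rps27a, covered the start itself and the other 14 began beyond it. By the deposited start 11 of 17 covered it, as did 21 of 34 large-subunit peaks and 221 of 804 peaks of other coding genes.

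**Figure D4:**
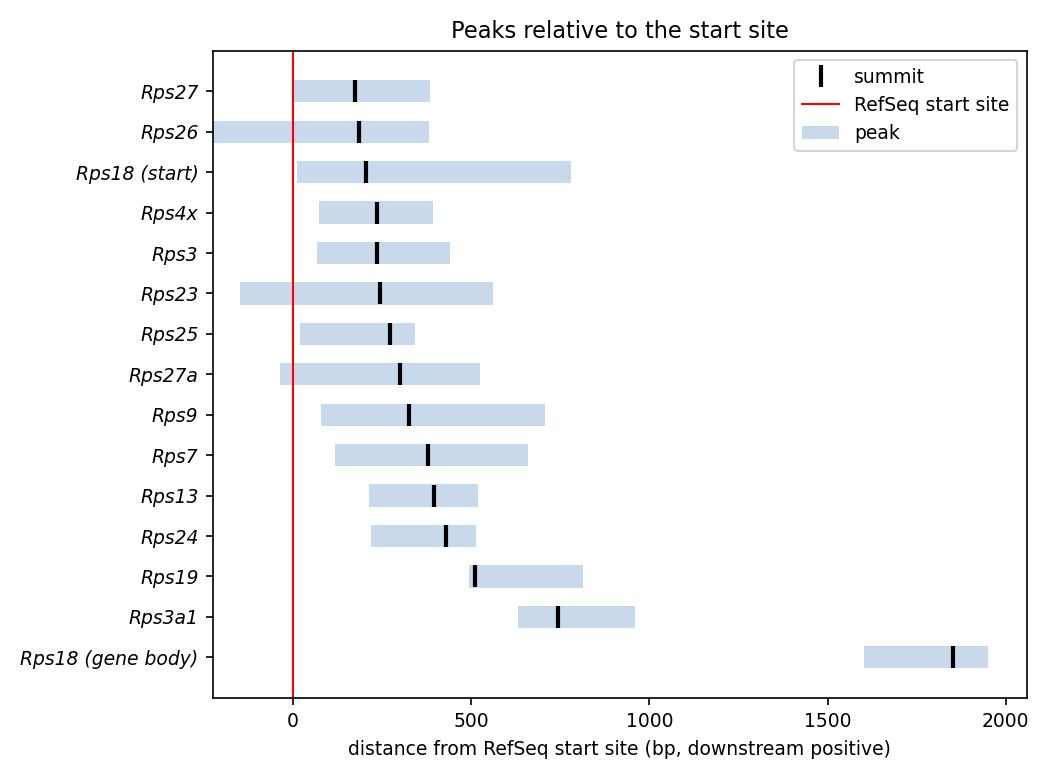
Extent and summit of 15 small-subunit peaks relative to the RefSeq start site of its gene, in bp with downstream positive. Bars are the deposited peaks and black ticks the summits. All summits drawn lie to the right of the start, and only the bars of Rps26, Rps23 and Rps27a cross it.

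Peak widths ran from 266 bp to 770 bp at Rps18, with a median of 374 bp. The median width was 572.5 bp at the large-subunit promoter peaks and 336 bp at the other coding promoter peaks within 1 kb. A coding gene other than the member lay within 200 bp of 4 of the 17 peaks, namely those of Rps18 (Vps52), Rps27a (Clhc1), Rps27 (Rab13) and Rps25 (Trappc4). The share was 23.5% for both subunits and 11.5% over all coding promoter peaks within 1 kb. At those 4 peaks the member and its neighbour cannot be told apart as the source of the signal.

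The 16 genes with no row were searched by position, because the table lists each peak under the gene with the nearest start. At 12 of them no peak lay within 3 kb of the RefSeq gene bounds. Those 12 included Rpsa, Rps6, Rps10, Rps14, Rps15, Rps15a, Rps16, Rps20, Rps27l and Rps29. Rps6 encodes the classical substrate of the S6 kinases, and Rps27l is a p53-inducible paralogue of Rps27. At Rps28 a peak at chr17:33823929-33824808 covered the RefSeq start and was listed under its neighbour Ndufa7, with a background of 23.2 in FA0, a pileup of 67 in FA4 and a fold of 2.82. At Rps21 a peak at chr2:180257549-180258300 was listed under Mir3091, with 25.1 in FA0, 63 in FA4 and a fold of 2.46, and its summit lay 288 bp downstream of the nearest RefSeq start of Rps21. At Rps2 a peak at chr17:24719385-24719856 was listed under Snora78, with 38.9 in FA0, 70 in FA4 and a fold of 1.78, inside the RefSeq bounds of Rps2 with its summit at −463 bp from the start in the reference table. The peak near Rps12 was listed under Snora33, with 11.8 in FA0 and 28 in FA4, and lay beyond the far end of the gene, 2156 bp downstream of its start.

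With any peak within 1 kb of a RefSeq start counted, 19 of 32 genes had one (59.4%, interval 40.6 to 76.3), the added genes being Rps2, Rps21 and Rps28. Of the 24 members with a start in the reference table it was 16, and of 34 such large-subunit genes 25, with 3.67% over all 17492 coding genes with a start there. A gene without a row may still carry H3K27ac, since regions that were equal in both libraries or higher in FA0 were not analysed here. Other coding symbols that the rule would match, Rps19bp1, Rps23rg1 and Rps27rt, had no row.

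Ribosomal protein genes have many processed pseudogenes, and 110 RefSeq pseudogenes bear symbols that match the rule. Such pseudogenes had 3 peaks listed under their names as the gene with the nearest start. By the deposited start the summits lay at 1140 bp for Rps15a-ps3, −92 bp for Rps19-ps5 and −5983 bp for Rps2-ps6, the last classed as distal intergenic. Rps15a-ps3 had a pileup of 10 in FA4 with its FA0 background at the caller's floor of 1.60, which is no measurement at that place, Rps19-ps5 had a background of 8.12 in FA0 and 27 in FA4, and Rps2-ps6 had 2.11 in FA0 and 16 in FA4. The FA0 background and the FA4 pileup of these peaks were lower than those of every peak at a member gene. Among members with a peak, Rps19 has 13 named pseudogenes, and Rps13 and Rps18 have 5 each. How reads that match several places were treated is not given in the sources used here, and their part in these values was not tested.

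Among 10 mESC marker genes, 7 had a promoter peak, with 4.73% over all coding genes. These were Pou5f1, Nanog, Sox2, Zfp42, Klf2, Dppa5a and Tdgf1, but not Klf4, Esrrb or Tfcp2l1. Of 6 fibroblast marker genes (Col1a1, Col1a2, Col3a1, Thy1, Pdgfra and Twist2) 0 had a peak of any kind. The share was 9.23% over all coding genes, so a count of 0 in so short a list says little. Neither count can check the labelled cell type, because only regions called higher in FA4 than in FA0 are listed. A marker promoter with equal H3K27ac in both libraries would have no row. The median pileup of the whole table was 12 fragments, between 8 and 265, so the members, at 42 to 135, rested on more fragments than most regions.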

How the data were processed

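Libraries from the IP and the input of FA0 and FA4 cells were sequenced by the authors. Per the submitters' processing notes, bcl2fastq 2.17, Bowtie 1.1.2 and MACS2 2.1.0 were used with mm10, and the sources used here do not give their settings. The authors deposited 2 peak tables, one with 4088 peaks and one that repeats its 1538 promoter peaks. The pileup signal of FA4 was deposited as whole fragment numbers. The −log10 p-values and q-values, the fold ratio and the positions were also deposited by the authors. The FA0 background recovered from pileup and fold gave, with the Poisson upper tail, all 4088 deposited −log10 p-values within 0.01. It is a local estimate by the caller and can differ from the FA0 fragments stacked at the summit itself. Its values at the members are not whole numbers, and how the caller scaled FA0 is not given in the sources used here.

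Members were found by symbol, and starts, neighbours and sequences came from RefSeq on GRCm38.p6. Where the sequence table held no start, the RefSeq gene end on the deposited strand was used (3 members). Binomial (Clopper-Pearson) and Poisson intervals are at the 95% level and cover counting error only, since each condition had 1 IP library. The paper's methods describe no molecular identifiers for the reads. Every gene of the family was to be named by rule, and some genes are not reported here by name, though they stay in all counts and medians. The members and lists were chosen with earlier results of these data known. Chromatin was digested enzymatically to fragments of up to several nucleosomes, which limits how finely a summit can be placed. The alternatives were a −log10 q or fold of at least 3, promoters within 1 kb, other family lists, 1 peak per gene, midpoints and RefSeq starts. The functions were tested on simulated data. The input libraries were not analysed here. Intervals used scipy 1.17.1, tables pandas 2.3.3 with numpy 2.4.6 in Python 3.11.15, and figures matplotlib 3.10.9.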

Additional observations from a re-analysis of the deposited data

How the results depend on the processing

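Of 22 alternatives, 20 left the value within 1.5 times of the count reported or within the 95% interval of the median or share. Some of these could not move the value. All member peaks were promoter peaks within 1 kb, so keeping only that class, or any class, returned the same numbers. Leaving out Rps27l, which had no row, could not change the number of genes with a peak either. With a fold of at least 3 the number of small-subunit genes with a promoter peak was 4 of 32, which is fewer peaks by construction. With the RefSeq start in place of the deposited one, 100% of the summits were downstream, against 76.5% with the deposited start. The count with Fau and Rack1 (17 of 34) and the summit share with 1 peak per gene (75%) were added after seeing the data. The order of the libraries, FA4 over FA0, was inferred and could not be varied. Depth limits the folds of the lowest peaks most, as at Rps3a1, where 42 FA4 fragments carry an interval of 30.3 to 56.8. No paired analysis was possible because FA0 and FA4 have a single IP library apiece, so leaving out a replicate was not possible either.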
